A study of Mus musculus with 21 samples.

Results

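Nuclear genes for the enzymes of oxidative phosphorylation were followed across sorted cells of the mouse main olfactory epithelium. They were taken by symbol: Nduf genes of the a, b, c, s and v series, Cox4 to Cox8 genes, Uqcr genes, Sdha to Sdhd and Atp5 genes, without pseudogenes or opposite-strand transcripts. This gave 82 genes of the 22786 symbols that both deposited tables hold. By complex, 34 belonged to complex I, 4 to complex II, 8 to complex III, 19 to complex IV and 15 to complex V. Atp5s and Atp5sl, which carry ATP synthase names without being subunits of it, were kept apart. Ndufa4 and Ndufa4l2 were counted with complex IV, of which the Ndufa4 protein is a subunit. One further symbol that meets the rule, Cox8c, was in the gg8 table alone and was left out.

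The mice carried a tetracycline-responsive transgene for mCherry with HyperTRIBE, an RNA-editing domain (HT), or for mCherry with HyperTRIBE joined to the RNA-binding protein Mex3a (MexHT). The drivers were gg8-tTA alone, for which the labels name immature neurons as the sorted cells, or gg8-tTA together with OMP-tTA, for which they name immature and mature neurons (OSN, olfactory sensory neurons). mCherry-positive cells (OSN) and mCherry-negative cells were sorted, and the labels describe the negative cells as an internal control from the same mouse. With gg8-tTA; OMP-tTA there were 3 HT OSN, 3 HT mCherry-negative, 6 MexHT OSN and 5 MexHT mCherry-negative libraries, and with gg8-tTA alone 2 MexHT OSN and 2 MexHT mCherry-negative libraries. Both transgenes carry an editing domain, and no group comes from mice without a transgene. Ages and strains are not given in the sources used here. The gg8-tTA libraries carry another date in their names than the rest, so date and driver are confounded and their effects cannot be told apart.

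Complexes I to IV pass electrons from NADH and succinate to oxygen, all but complex II also pump protons across the inner mitochondrial membrane, and complex V (ATP synthase) uses the proton gradient to make ATP. Most of their subunits are nuclear genes translated in the cytosol, while a small core is encoded by mitochondrial DNA. Several subunits of complex IV exist as a common isoform and a second isoform known from particular tissues, such as heart and skeletal muscle for Cox8b and Cox7a1, testis for Cox6b2, and lung and pericytes for Cox4i2. Values below are TPM, read counts scaled to a fixed total per library, and are corrected for gene length, so that levels of different genes can be compared. None of the 13 mitochondrially encoded subunit genes was in both tables, and they were not analysed here.

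The counts recovered from the TPM values summed to between 7425287 and 15215673 per library. Mex3a stood at 24 to 61.5 TPM in HT OSN and at 328.5 to 1271 TPM in MexHT OSN (limma adjusted p = 0.000406). Xist, made in female cells, and Y-linked transcripts both reached 1 TPM in 14 of 21 libraries, among them 1 of 3 HT OSN and 5 of 6 MexHT OSN libraries, so a library, and with it a replicate or a pair, may not be a single mouse. Markers matched the sort in part. Summed markers of connective tissue and bone were 8206 to 24826 TPM in the gg8+OMP mCherry-negative libraries and 100.4 to 339.5 TPM in OSN, whereas markers of mature OSN were also present in mCherry-negative cells, at 487 to 11084 TPM. In such bulk samples, fewer cells of a type and less RNA per cell cannot be told apart. Of the 82 genes, 71 had at least 100 recovered counts in every library, so counting error was small for most of them, and 7 had a library under 10 counts.

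The 82 genes together made up 15621 to 23955 TPM of the 1000000 TPM of a library. Their sum was 21143 TPM ± 1957 (SD, n = 6) in MexHT OSN and 17346 ± 1951 (n = 5) in MexHT mCherry-negative cells. In HT it was 19116 ± 682 (n = 3) in OSN and 18420 ± 1193 (n = 3) in mCherry-negative cells. The sum was higher in OSN than in the mCherry-negative library of the same number in 4 of 5 MexHT pairs, in 3 of 3 HT pairs and in 0 of 2 gg8 MexHT pairs. The exception among MexHT was replicate 1, where the ratio was 0.969 and where the mCherry-negative library, at 20668 TPM, was above the other 4 (15621 to 17256 TPM). With gg8-tTA alone, the OSN libraries stood at 16333 and 17083 TPM and the mCherry-negative libraries at 17156 and 20858 TPM. The ratio of mean sums between MexHT OSN and MexHT mCherry-negative cells was 1.22, and 1.10 when each library was scaled by the median ratio of its genes instead.

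**Figure D1:**
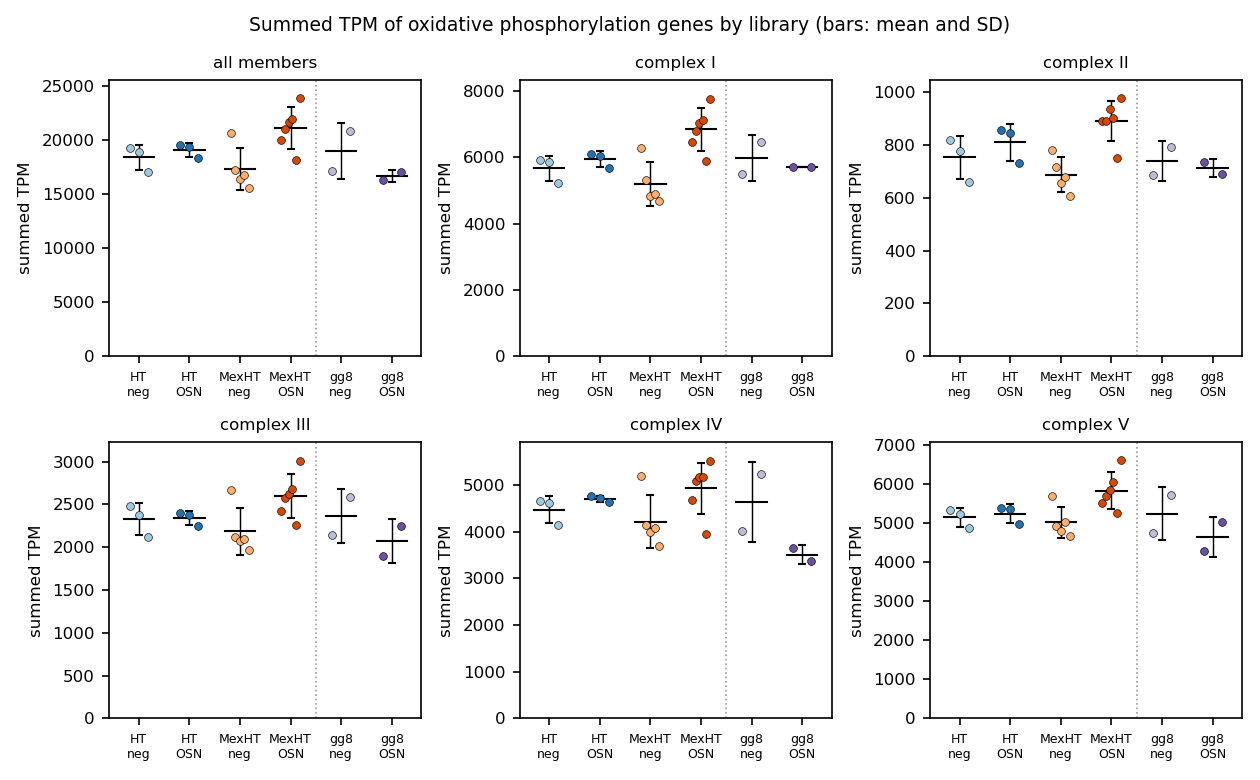
Summed TPM of all 82 genes and of complexes I to V in each library (points), with the mean and SD of each group (bars); neg is mCherry-negative, and the gg8 groups right of the dotted line come from a separately scaled table. MexHT OSN libraries were at 18140 to 23955 TPM for all genes and MexHT mCherry-negative libraries at 15621 to 20668 TPM, with replicate 1 the highest of the latter.

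Within this total the balance between complexes varied little. Complex I took 32.27% to 32.54% of the summed TPM of the 5 complexes in the 6 MexHT OSN libraries and 31.11% to 31.32% in the 3 HT OSN libraries, so the ranges did not overlap. In mCherry-negative cells its share was 29.15% to 30.81% for MexHT and 30.72% to 31.06% for HT. The gg8 MexHT libraries were at 33.57% and 35.08% in OSN and at 31.11% and 32.15% in mCherry-negative cells. The share of complex IV was 23.3% ± 0.85 in MexHT OSN, 24.7% ± 0.57 in HT OSN and 21.1% ± 1.91 in gg8 MexHT OSN (SD over 6, 3 and 2 libraries). Complex II, the smallest group, held 3.78% to 4.46% in every gg8+OMP library.

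Levels of single subunits spread widely although the subunits of a complex are assembled in fixed ratios. Over the 17 gg8+OMP libraries, 66 of the 82 genes averaged 100 TPM or more and 7 averaged under 25 TPM. In complex I the means ran from 25.8 TPM for Ndufb4 to 465.7 TPM for Ndufb10, an accessory subunit of the membrane arm, and in complex V from 43 TPM for Atp5g2 to 808 TPM for Atp5b, the catalytic beta subunit. Complex IV held both the second highest leader, Cox6c at 782 TPM, and 6 of the 7 genes under 25 TPM. Sdhb, the iron-sulfur subunit of succinate dehydrogenase, led complex II at 271 TPM, and Uqcrq, a small subunit of the cytochrome bc1 complex, led complex III at 539 TPM. For Ndufb4 and 10 other genes, among them Atp5g1, Atp5g2 and Atp5l, a pseudogene transcript is at least 98% identical over at least 100 bases, so that their counts could have been split between copies. A further limit holds for 11 members that share at least 10% of their exon bases with another gene.

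The first comparison asked how the genes differed between sorted MexHT neurons and the mCherry-negative cells of the same epithelia. In OSN, 40 of 80 tested genes were higher (50%, where 35.8% of all 16522 genes tested were higher) and 4 were lower (5%, where 27.6% of all genes were lower, and 63.4% passed in either direction), by limma on log2(TPM + 1) with Benjamini-Hochberg adjustment over all genes. The median difference was 0.32 on the log2 scale, against 0.16 for all genes. By complex, 20 of 34 genes of complex I were higher and none lower, 3 of 4 of complex II, 4 of 8 of complex III, 6 of 17 of complex IV and 6 of 15 of complex V, and all 4 lower genes were in complex IV. With Ndufa4 and Ndufa4l2 moved to complex I, the counts there became 21 higher and 1 lower of 36. In 22 genes every OSN library was above every mCherry-negative library (background 23.4% of all genes), and in 3 every one was below (19.6%). The share of higher among called genes depended on the scaling: with median-of-ratios scaling, which moved the median of all genes from 0.16 to 0.02, 19 genes were higher (23.8%, where 28.7% of all genes were higher) and 6 lower (7.5%, against 31.4%). With a count model on the recovered counts (voom) 25 were higher (31.2%, against 30.3% of all genes) and 4 lower (5%, against 29.9%). The share of higher genes was thus above that of all genes on log2(TPM + 1), near it with voom and below it with median-of-ratios scaling, while the share of lower genes was below that of all genes in each of the 3.

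Complex I held 20 of the 40 higher genes. Ndufv3, an accessory subunit of the NADH-oxidising module, had 147, 162, 89.3, 111 and 70.5 TPM in the 5 MexHT mCherry-negative libraries and 162 to 212 TPM (median 192) in the 6 OSN libraries. The groups did not overlap, although the highest mCherry-negative library, replicate 2, nearly reached the lowest OSN library; the log2 difference was 0.77 (SE 0.19, adjusted p = 0.00321). Ndufa5, an accessory subunit of the matrix arm, had 248, 218, 174, 184 and 170 TPM in mCherry-negative cells and 279 to 435 TPM (median 326) in OSN, a log2 difference of 0.76 (SE 0.13, adjusted p = 0.000335). All 6 OSN libraries were above all 5 mCherry-negative libraries. Ndufs6, a small accessory subunit, had 119, 111, 101, 98.7 and 103 TPM in mCherry-negative cells and 136 to 195 TPM (median 163) in OSN, again without overlap (log2 difference 0.61, SE 0.11, adjusted p = 0.000271). The most abundant gene of the complex, Ndufb10, rose from 391 TPM ± 30 (SD, n = 5) to 530 ± 73.3 (n = 6), with overlap (log2 difference 0.43, SE 0.11, adjusted p = 0.00503, and 0.089 with median-of-ratios scaling).

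The median log2 difference was 0.36 in complex I, 0.43 in complex II, 0.28 in complex III and 0.20 in both complex IV and complex V. Sdhb rose by 0.50 (SE 0.12, adjusted p = 0.0023) and Uqcrq by 0.46 (SE 0.12, adjusted p = 0.00494) on the log2 scale, the latter with an adjusted p of 0.0799 under median-of-ratios scaling. Ndufa4 had 338, 254, 221, 222 and 192 TPM in mCherry-negative cells and 262 to 495 TPM (median 441) in OSN (log2 difference 0.76, SE 0.18, adjusted p = 0.00259). Its groups overlapped, since mCherry-negative replicate 1 was above the lowest OSN library. The 2 genes with the highest levels of complexes IV and V did not pass: Cox6c was at 753 TPM ± 159 (n = 5) and 818 ± 134 (n = 6), with a log2 difference of 0.12 (SE 0.16, adjusted p = 0.513), and Atp5b at 801 ± 38.3 and 795 ± 56.4, with a difference of -0.01 (SE 0.09, adjusted p = 0.915). Atp5sl, a factor needed to assemble the membrane arm of complex I, showed the largest rise of the 40, from 21, 25.5, 17.2, 15.8 and 17.5 TPM to 37.4 to 39.9 TPM (median 38.1; log2 difference 0.97, SE 0.12, adjusted p = 2.45e-05). Its 6 OSN libraries lay within a narrow range above all mCherry-negative libraries.

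**Figure D2:**
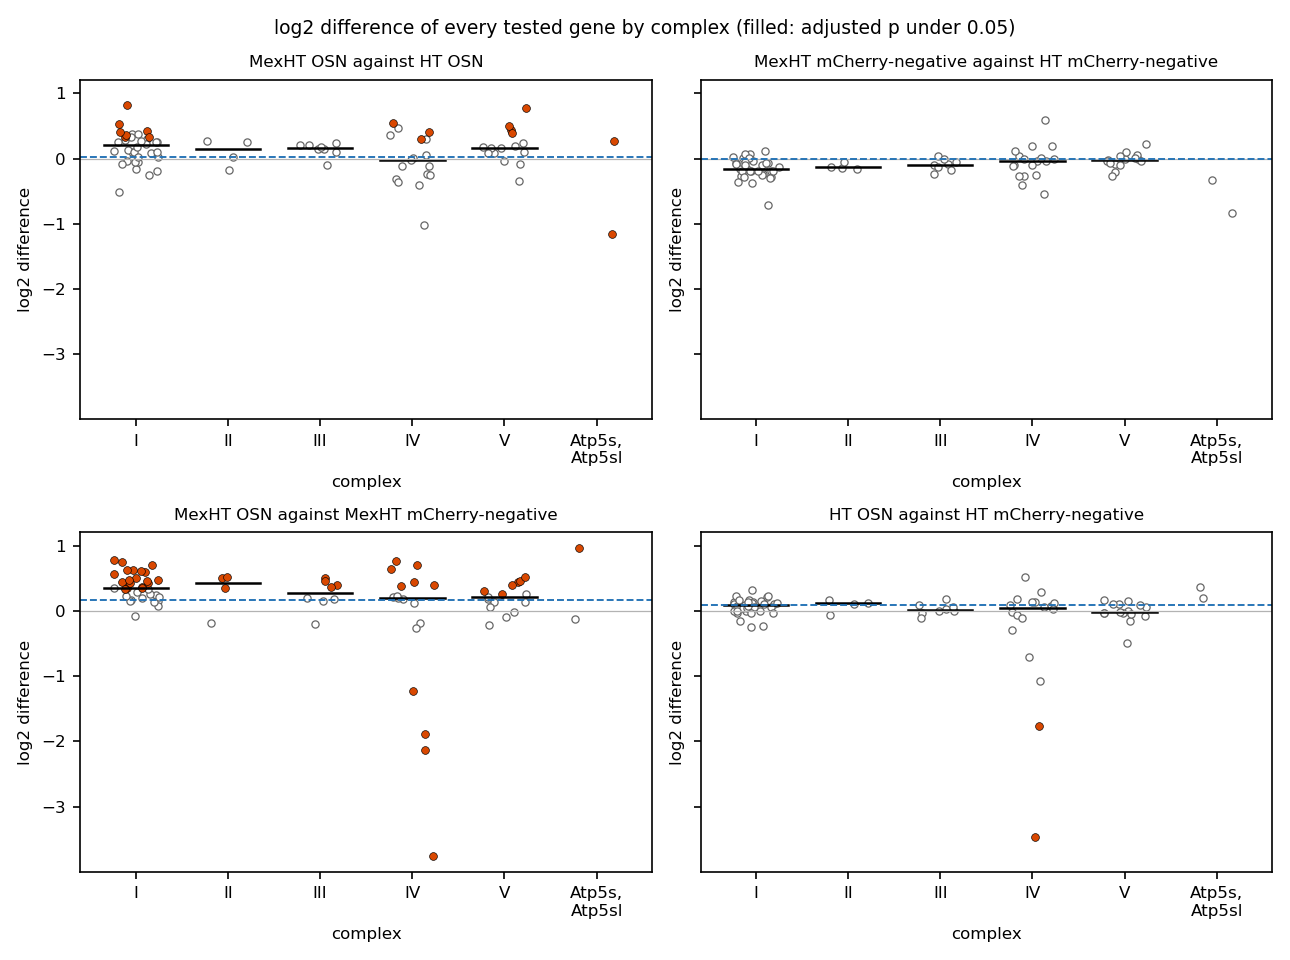
log2 difference of every tested gene (points) by complex in the 4 gg8+OMP comparisons of groups; filled points have an adjusted p under 0.05, black lines are medians of a complex and the dashed line is the median of all genes tested. MexHT OSN against MexHT mCherry-negative cells shows 40 filled points above 0 and 4 below, all 4 in complex IV, while the construct comparison in mCherry-negative cells shows none.

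The 4 genes that fell in OSN were second isoforms of complex IV subunits: Cox8b, Cox6b2, Cox4i2 and Ndufa4l2, a paralog of Ndufa4 known for its induction under low oxygen. Cox8b had 217, 27.8, 66.1, 39.3 and 16.7 TPM in MexHT mCherry-negative cells and 0 to 8.68 TPM (median 3.1) in OSN. The ranges did not overlap, the highest mCherry-negative value being that of replicate 1. On the log2(TPM + 1) scale, which understates changes of low genes, Cox8b fell by 3.76 (SE 0.64, adjusted p = 0.000248), 13.5-fold. In the OSN libraries it rested on 0 to 13 recovered counts, against 18 to 274 in mCherry-negative libraries. Its partner Cox8a, the common isoform, had 449 TPM ± 58.6 (n = 5) in mCherry-negative cells and 526.3 ± 52 (n = 6) in OSN and did not pass (log2 difference 0.23, adjusted p = 0.0806).

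Cox6b2 had 10.7, 11.5, 19.7, 23.1 and 28.9 TPM in mCherry-negative cells and 1.63 to 8.25 TPM (median 3.67) in OSN, a fall of 3.70-fold (log2 difference -1.89, SE 0.34, adjusted p = 0.000414). The lowest mCherry-negative library was above the highest OSN library. Its partner Cox6b1 went the other way, from 240 TPM ± 8.41 to 328 ± 54.9 (log2 difference 0.44, SE 0.11, adjusted p = 0.00376, with 0.0654 under median-of-ratios scaling and 0.0504 under voom). Cox4i2 had 9.47, 4.5, 6.6, 5.11 and 8.33 TPM in mCherry-negative cells and 0 to 2.31 TPM (median 0.877) in OSN, where replicates 3 and 4 had no count (log2 difference -2.14, SE 0.33, adjusted p = 0.000122). Ndufa4l2 had 2.68, 2.83, 3.32, 4.15 and 5.24 TPM in mCherry-negative cells and 0.252 to 3.05 TPM (median 0.764) in OSN (log2 difference -1.22, SE 0.28, adjusted p = 0.00225, and 0.107 with quantile normalization). The ranges overlapped because OSN replicate 6, at 8 counts, stood above 2 mCherry-negative libraries. Cox4i1, the common partner of Cox4i2, was at 622 TPM ± 50.2 and 705 ± 80.4 and did not pass (adjusted p = 0.145).

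Not every second isoform fell. Cox7a1, the heart and skeletal muscle isoform of subunit 7a, had 16.5, 10.4, 13.1, 8.58 and 5.52 TPM in mCherry-negative cells and 11.9 to 24.8 TPM (median 16.7) in OSN, on 6 to 30 recovered counts. It rose together with its partner Cox7a2 (log2 differences 0.71, SE 0.25, adjusted p = 0.0256, and 0.65, SE 0.15, adjusted p = 0.00209); the rise of Cox7a1 did not pass with median-of-ratios scaling (adjusted p = 0.0726) or voom (0.108), or without any one of mCherry-negative replicates 4 and 5 and OSN replicates 1 and 6 (0.0517 to 0.0645). The muscle isoform Cox6a2 had 0 to 3 counts in each of the 21 libraries and Cox7b2 0 to 2, at or under the floor of 3 counts, so no fold was formed. Cox6a1 carried the subunit 6a signal, at 401 TPM ± 10.8 in mCherry-negative cells and 531 ± 53.1 in OSN (log2 difference 0.40, SE 0.09, adjusted p = 0.00184, and 0.0624 with median-of-ratios scaling).

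Expressed as a share of an isoform pair, which does not depend on how a library is scaled, Cox8b made up 12% of Cox8a plus Cox8b in MexHT mCherry-negative cells and 0.682% in MexHT OSN. The corresponding means were 7.19% and 1.31% for Cox6b2, 1.08% and 0.133% for Cox4i2, and 1.57% and 0.251% for Ndufa4l2. These 4 were the only ones of 45 exact permutation tests (9 shares in 5 comparisons, two-sided) to pass, each at p = 0.00433, the smallest that 6 against 5 libraries can give, and 0.0487 after Benjamini-Hochberg adjustment over the 45. The exact tests of 3 against 3 HT libraries and of 2 against 2 gg8 libraries could not pass, their smallest possible p being 0.1 and 0.333. In HT the fractions did not overlap for the same 4 shares or for Atp5g1 among the Atp5g genes, each at p = 0.1 in the exact test. Each of the 4 shares was lower in OSN in 5 of 5 MexHT pairs and in 3 of 3 HT pairs. With gg8-tTA alone the shares of Cox8b and Cox6b2 were lower in OSN in 2 of 2 pairs. Those of Cox4i2 and Ndufa4l2 were lower there in 1 of 2 pairs and higher in the other. The test within pairs cannot pass with 5 pairs. With any one of the 11 MexHT libraries with both drivers left out, the adjusted p was between 0.0714 and 0.107. Without mCherry-negative replicate 1 the Cox8b difference was -7.23 percentage points in place of -11.4.

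The mCherry-negative cells in which the 4 isoforms were higher also held the markers of other cell types. The summed pericyte and smooth muscle markers (10 genes) were 317.3 to 1040 TPM in MexHT mCherry-negative libraries and 18.9 to 36.5 TPM in OSN. They were highest in mCherry-negative replicate 1, as were Cox8b and Cox4i2. Markers of sustentacular (supporting) cells were also highest there, at 993 TPM against 196 to 344 TPM in the other MexHT mCherry-negative libraries. Cox6b2, Ndufa4l2 and the connective tissue and bone markers were lowest in that library. The summed striated muscle markers (12 genes) were 18.9 to 41.1 TPM and 12.9 to 24.1 TPM, with 3 of 7 tested lower and 1 higher. Of all genes tested, 27.6% were lower in OSN and 35.8% higher. Connective tissue and bone markers were lower for 8 of 8 genes and immune markers for 10 of 12. The part of these cells in the isoform differences was not tested.

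**Figure D3:**
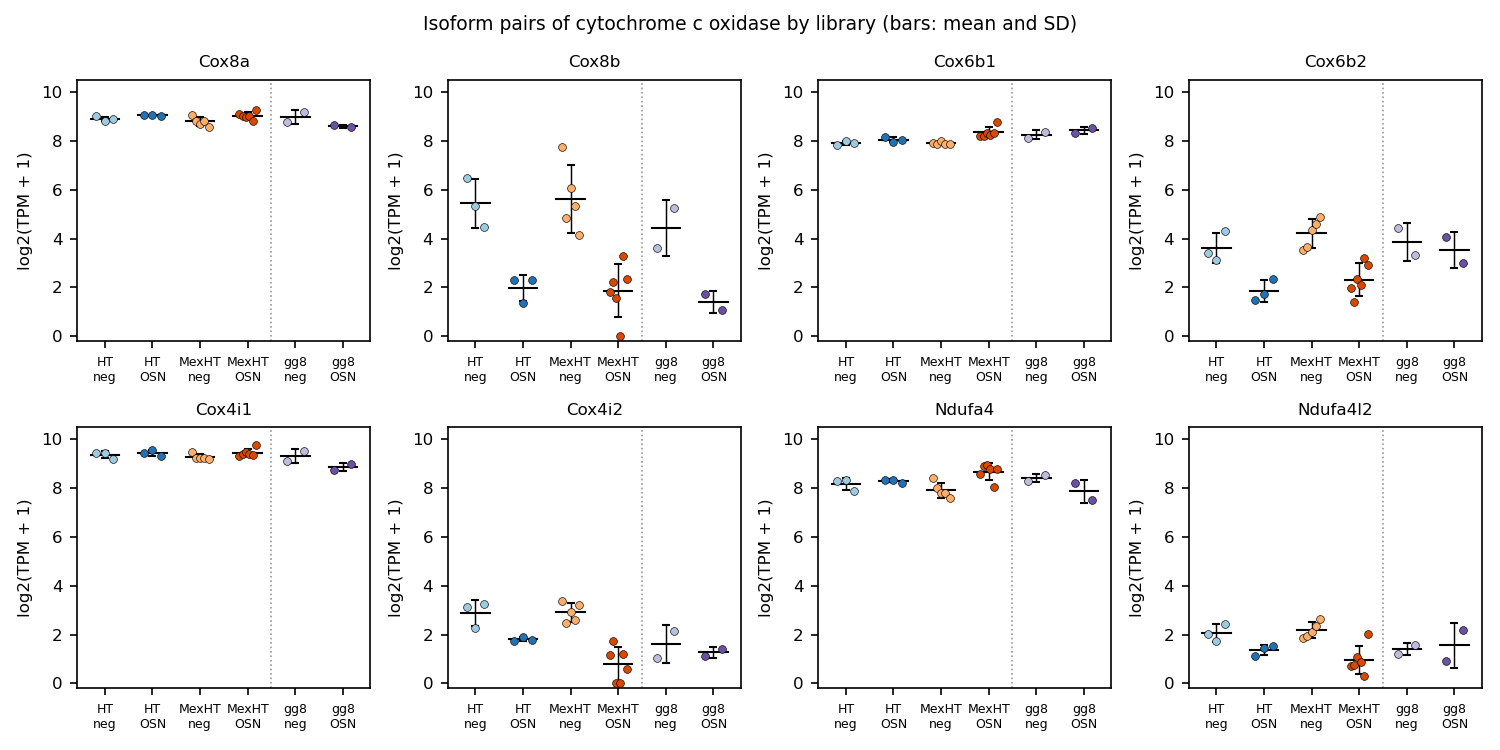
log2(TPM + 1) of 4 isoform pairs in each library (points), with the mean and SD of each group (bars); neg is mCherry-negative and the gg8 groups are right of the dotted line. Cox8b, Cox6b2, Cox4i2 and Ndufa4l2 are lower in MexHT OSN than in MexHT mCherry-negative cells, while their partners lie above them in every group. Cox8b came closest to its partner in MexHT mCherry-negative replicate 1, at 28.6% of the pair.

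The promoters of partner isoforms are shown because the partners differ in the density of CpG dinucleotides, which mark promoters of widely expressed genes. Each line gives the 100 bases before the start of the gene on its own strand, from RefSeq on GRCm38.p6, with every CG in capitals. Promoters were matched for 68 of the 82 genes, and for 3 isoform pairs on both sides. The positions are chr19:7217617-7217716 (minus strand) for Cox8a, chr7:140900447-140900546 (minus) for Cox8b, chr7:30626115-30626214 (minus) for Cox6b1, chr7:4753095-4753194 (minus) for Cox6b2, chr9:79759854-79759953 (minus) for Cox7a2 and chr7:30184071-30184170 (plus) for Cox7a1.
Cox8a: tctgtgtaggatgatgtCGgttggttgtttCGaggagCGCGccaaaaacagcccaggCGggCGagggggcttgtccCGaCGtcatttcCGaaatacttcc
Cox8b: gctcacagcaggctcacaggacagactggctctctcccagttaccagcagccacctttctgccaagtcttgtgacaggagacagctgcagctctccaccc
Cox6b1: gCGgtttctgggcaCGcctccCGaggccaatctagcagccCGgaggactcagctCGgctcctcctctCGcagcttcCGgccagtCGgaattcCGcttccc
Cox6b2: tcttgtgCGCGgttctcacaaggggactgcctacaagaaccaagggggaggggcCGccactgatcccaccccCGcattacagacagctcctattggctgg
Cox7a2: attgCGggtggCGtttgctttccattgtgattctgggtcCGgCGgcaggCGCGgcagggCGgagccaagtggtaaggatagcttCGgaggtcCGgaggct
Cox7a1: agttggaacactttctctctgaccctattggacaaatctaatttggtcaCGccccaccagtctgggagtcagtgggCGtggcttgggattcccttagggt
In the 300 bases around the start (250 before, 50 after), Cox8b held 2 CpG and Cox8a 19, Cox7a1 held 7 and Cox7a2 20, and Cox6b2 held 10 and Cox6b1 17. The median was 19 over the matched genes and 15 over 17492 protein-coding genes, taking the highest count where a gene has several starts, which none of these 6 isoforms has. In each of these 3 pairs the isoform with fewer CpG was the one at the lower level, including Cox7a1, which rose in OSN. This did not extend to all members, since Cox7b held 5 CpG, fewer than Cox7a1, and averaged 291 to 325 TPM in the gg8+OMP groups. A link between CpG density and level was not tested.

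In HT mice the same comparison of OSN with mCherry-negative cells gave no gene that rose and 2 that fell, of 81 tested (background 2.18% higher, 9.11% lower and 11.3% in either direction, of 17027 genes). Both were isoforms named above. Cox8b had 88.5, 40 and 21.5 TPM in mCherry-negative cells and 3.87, 1.57 and 3.94 TPM in OSN (log2 difference -3.46, SE 0.53, adjusted p = 0.00972), and Cox6b2 had 9.76, 7.68 and 18.7 TPM against 1.82, 2.31 and 4.06 TPM (log2 difference -1.76, SE 0.39, adjusted p = 0.0346). Neither pair of groups overlapped. The call of Cox6b2 was lost with quantile normalization (adjusted p = 0.057), with voom (0.0663) and without HT OSN replicate 1 or 2 or HT mCherry-negative replicate 1 or 3 (0.0699 to 0.125). Cox4i2 had 7.82, 3.84 and 8.5 TPM against 2.32, 2.74 and 2.46 TPM, without overlap, and did not pass (log2 difference -1.08, SE 0.32, adjusted p = 0.0747). The median over the genes was 0.06 against 0.10 for all genes, and its sign changed with median-of-ratios scaling (-0.01). Groups did not overlap for 6 higher and 8 lower genes of 81, where 22.9% and 18% of all genes did not.

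With gg8-tTA alone, 1 of 80 genes was lower in OSN and none higher (background 7.2% lower, 1.12% higher and 8.32% in either direction, of 16490 genes). Cox8b had 11.4 and 36.7 TPM in mCherry-negative cells and 2.33 and 1.13 TPM in OSN, on 64 and 5 counts in all. By counts it was 15.6-fold lower in OSN (95% exact interval 6.34 to 49.6, counting error only), with an adjusted p of 0.0467 in limma. The call was lost with a pseudocount of 0.1 (0.0608), without the filter on low values (0.0522), with quantile normalization (0.0905), array weights (0.0536) and voom (0.0955), and without OSN replicate 2 (0.165) or mCherry-negative replicate 1 (0.272) or 2 (0.44). The median of the genes was -0.07, against 0.09 for all genes. Cox6b2 did not part the groups here, at 20.5 and 8.99 TPM in mCherry-negative cells and 15.6 and 6.98 TPM in OSN (adjusted p = 0.72). Groups did not overlap for 10 higher and 27 lower genes, where 33.5% and 30.2% of all genes did not. Markers of mature OSN summed to 875.9 and 308.2 TPM in these OSN libraries and to 7472 and 13132 TPM in their mCherry-negative libraries, whereas with both drivers the ranges of the fractions overlapped.

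The genes that rose in MexHT OSN were then compared for motifs of factors known to act on oxidative phosphorylation promoters. NRF1 is a nuclear respiratory factor, and its motif (GCGCA, any base, then GCGC) was searched on both strands in the 300-base windows. It was found for 16 of 68 matched genes (23.5%) and for 7.17% of 17492 protein-coding genes, where a gene with several annotated starts (6 of the 68) counted when any of its windows held the motif. The YY1 motif AAGATGGC was found in 11 (16.2%, against 3.57%), the ERR motif TCAAGGTCA in 2 (2.94%, against 0.377%) and the GABP/ETS motif CCGGAAGT in 5 (7.35%, against 5.69%). By complex, NRF1 matches were in 6 of 30 promoters for complex I, 2 of 3 for II, 1 of 5 for III, 1 of 14 for IV and 6 of 14 for V. Among the genes higher in MexHT OSN than in mCherry-negative cells 25.7% of 35 promoters held the NRF1 motif, and among the other members 21.2% of 33. The following 6 are those of the higher genes with a match in the 100 bases before the start, with the match in capitals, from RefSeq on GRCm38.p6. Ndufa5 has 2 annotated starts, both with a match in their window, and the stretch shown is that of the start farther upstream. The stretches lie at chr17:56717662-56717761 (plus strand) for Ndufa11, chr6:24527691-24527790 (minus) for Ndufa5, chr2:36049339-36049438 (minus) for Ndufa8, chr13:73328483-73328582 (minus) for Ndufs6, chr13:74350241-74350340 (minus) for Sdha and chr5:108434400-108434499 (minus) for Atp5k.
Ndufa11: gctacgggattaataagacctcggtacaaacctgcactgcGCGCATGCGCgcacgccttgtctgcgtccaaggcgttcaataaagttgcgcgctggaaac
Ndufa5: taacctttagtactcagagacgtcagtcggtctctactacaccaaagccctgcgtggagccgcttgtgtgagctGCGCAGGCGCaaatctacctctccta
Ndufa8: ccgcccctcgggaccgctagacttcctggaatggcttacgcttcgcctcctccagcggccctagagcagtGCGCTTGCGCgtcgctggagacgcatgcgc
Ndufs6: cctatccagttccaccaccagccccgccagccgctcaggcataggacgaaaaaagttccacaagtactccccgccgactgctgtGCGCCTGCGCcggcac
Sdha: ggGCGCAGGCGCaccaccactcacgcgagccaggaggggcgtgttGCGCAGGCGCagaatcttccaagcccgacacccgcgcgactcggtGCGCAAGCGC
Atp5k: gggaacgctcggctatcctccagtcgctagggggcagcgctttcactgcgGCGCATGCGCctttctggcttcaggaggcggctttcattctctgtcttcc
A match is a description of the letters and not evidence of binding. Sdha, the flavoprotein subunit of succinate dehydrogenase, held several matches in this stretch. Of these 6 genes, Ndufa11, Ndufa8 and Ndufs6 were also higher in MexHT OSN than in HT OSN, where 19.9% of all genes were higher. That comparison shares the MexHT OSN libraries by which the 6 were chosen, so the overlap is not independent of the choice.

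The second comparison addressed the Mex3a construct in neurons, MexHT OSN against HT OSN, and shares the MexHT OSN libraries with the first. Here 15 of 80 genes were higher (18.8%, where 19.9% of 16067 genes were higher) and 1 was lower (1.25%, where 16.8% of all genes were lower, and 36.8% passed in either direction). The share that rose was thus near the background, and few fell. The median difference was 0.16 on the log2 scale, against 0.03 for all genes. In complex I 7 of 34 genes rose, in complex IV 3 of 17 and in complex V 4 of 15, and none in complexes II and III. Groups did not overlap for 18 higher and 4 lower genes, where 21.5% and 16.9% of all genes did not.

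Ndufb2, an accessory subunit of the membrane arm of complex I, had 76.7, 74.4 and 66.8 TPM in HT OSN and 111 to 146 TPM (median 131) in MexHT OSN. It showed the largest rise (log2 difference 0.82, SE 0.11, adjusted p = 0.00058), and all 6 MexHT libraries were above all 3 HT libraries. Atp5g1, one of 3 genes whose mature product is the c subunit of the ATP synthase rotor, had 36, 46.2 and 42.5 TPM in HT OSN and 52.9 to 103 TPM (median 67.7) in MexHT OSN (log2 difference 0.78, SE 0.20, adjusted p = 0.013, and 0.0642 without HT OSN replicate 1). Again the groups did not overlap. Cox7a2 had 158, 157 and 149 TPM and 189 to 261 TPM (median 232), without overlap (log2 difference 0.55, SE 0.11, adjusted p = 0.0044). Ndufa11, a membrane arm subunit of complex I whose promoter is shown above, had 36, 33.8 and 30.9 TPM in HT OSN and 41.1 to 58.4 TPM (median 48.6) in MexHT OSN (log2 difference 0.53, SE 0.15, adjusted p = 0.0176). Its call was lost without HT OSN replicate 2 (0.0563) or 3 (0.0625) and with the replicate block (0.0575). Cox6a1 also passed (log2 difference 0.30, adjusted p = 0.0485), but not without any one of MexHT OSN replicates 2, 3, 4 and 6 or HT OSN replicates 1 to 3 (0.0586 to 0.134), nor with median-of-ratios scaling (0.162), without the filter on low values (0.071) or with the replicate block (0.101).

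Atp5s, named for coupling factor B, was the gene that fell. It had 22.5, 28 and 23.9 TPM in HT OSN and 5.94 to 13.4 TPM (median 11) in MexHT OSN, 2.23-fold lower without overlap (log2 difference -1.15, SE 0.23, adjusted p = 0.00375). In mCherry-negative cells its levels were 21.6, 25.2 and 17.7 TPM for HT and 16.2, 14.5, 10.1, 10 and 8.61 TPM for MexHT, also without overlap, and the difference of -0.83 (SE 0.23) did not pass there (adjusted p = 0.218).

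The c subunit genes differed in how they were divided. Atp5g1 made up 9.50%, 12.7% and 13.4% of the summed TPM of Atp5g1, Atp5g2 and Atp5g3 in HT OSN and 14.4% to 25.7% in MexHT OSN, without overlap. The exact permutation test gave p = 0.0238, the smallest possible with 6 and 3 libraries, and 0.153 after adjustment over the 45 share tests. Atp5g3, the most abundant of the 3 genes, was at 272 TPM in HT OSN and 264 TPM in MexHT OSN on average (log2 difference -0.04, adjusted p = 0.787), and Atp5g2 at 39.6 and 42.2 TPM (0.08, adjusted p = 0.66). The share of Cox7a1 in Cox7a1 plus Cox7a2 was 12.9% in HT OSN and 7.22% in MexHT OSN, also without overlap, at the same p of 0.0238 and adjusted p of 0.153 in the exact test. The groups nearly met, at 10.65% in HT OSN replicate 2 and 10.60% in MexHT OSN replicate 1. The highest genes of each complex did not pass here: the log2 differences were 0.14 for Ndufb10, 0.26 for Sdhb, 0.17 for Uqcrq, 0.05 for Cox6c and -0.08 for Atp5b.

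The count of called genes in this comparison depended on the libraries and the model. It was 6 higher and 1 lower without HT OSN replicate 1, 5 and 1 without replicate 2, 6 and 3 without replicate 3, and 9 and 1 without MexHT OSN replicate 3, where 12.2%, 12.6%, 16.9% and 18.2% of all genes were higher and 11.2%, 11.9%, 14.6% and 15.1% lower. Without MexHT OSN replicate 5 the count rose to 23 higher (28.8%, against 21.9% of all genes) and 1 lower (1.25%, against 18.6%). With median-of-ratios scaling 6 genes were higher (7.5%, where 17.1% of all genes were higher) and 1 lower (18.9% of all genes). With weights for library quality 29 were higher (36.2%, against 30.7% of all genes) and 6 lower (7.5%, against 25.1%). With the Xist level as a covariate no member passed, and 329 of all 16067 genes did. Xist was at 0.126 to 60.3 TPM in HT OSN, where 2 of 3 libraries held Y-linked transcripts without Xist at 1 TPM. It was at 58.4 to 139.8 TPM in MexHT OSN, where 0 of 6 did. The mCherry-negative libraries of HT and MexHT were divided in the same way. Sex makeup and construct were thus nearly aligned, and their effects cannot be told apart here. The cell makeup moved with the construct as well: markers of mature OSN summed to 8827 to 13571 TPM in HT OSN and 2116 to 6608 TPM in MexHT OSN (10 of 13 lower, where 16.8% of all genes were lower), and markers of immature OSN to 3541 to 4035 TPM and 6145 to 7134 TPM (9 of 13 higher, where 19.9% of all genes were higher). The part of maturation or cell makeup in these differences was not tested.

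**Figure D4:**
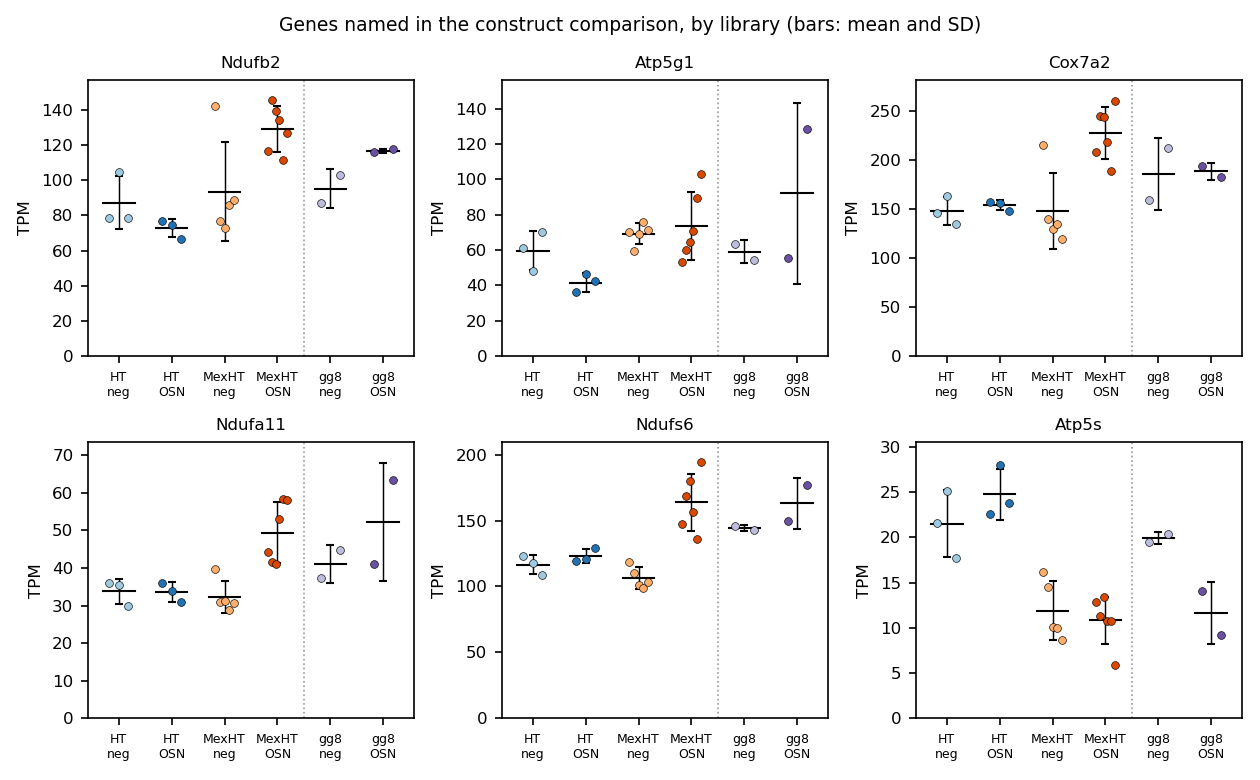
TPM of 6 genes in each library (points), with the mean and SD of each group (bars); neg is mCherry-negative and the gg8 groups are right of the dotted line. Ndufb2, Atp5g1, Cox7a2, Ndufa11 and Ndufs6 are higher and Atp5s is lower in MexHT OSN than in HT OSN, and Atp5s is also lower in MexHT mCherry-negative libraries (8.61 to 16.2 TPM) than in HT mCherry-negative libraries (17.7 to 25.2 TPM).

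Between the mCherry-negative cells of MexHT and HT mice no gene passed the limma test, of the 81 tested or of all 16860 genes (background 0% in both directions, with 3465 genes at an unadjusted p under 0.05). With voom the count was also 0, and with weights for library quality 3 were higher (3.7%) and 48 lower (59.3%), where that setting called 29.6% of all genes higher and 30% lower. The median difference was -0.09, against -0.01 for all genes, and 61 of 81 genes had a negative value. Groups did not overlap for 0 higher and 3 lower genes, where 3.64% and 5.07% of all genes did not. Ndufv3 had 191, 213 and 149 TPM in HT and 147, 162, 89.3, 111 and 70.5 TPM in MexHT mCherry-negative cells, which overlapped (log2 difference -0.71, SE 0.27, adjusted p = 0.22).

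Whether the construct difference itself differed between OSN and mCherry-negative cells was tested with an interaction term over the 17 gg8+OMP libraries. It passed for 1 of 80 genes (1.25%, where 7.05% of 16785 genes passed in that direction, 5.37% in the other and 12.4% in either), Ndufs6. Ndufs6 had 119, 121 and 129 TPM in HT OSN and 136 to 195 TPM in MexHT OSN, against 123, 118 and 109 TPM in HT and 98.7 to 119 TPM in MexHT mCherry-negative cells. The construct difference was 0.40 in OSN (SE 0.12, adjusted p = 0.0243) and -0.13 in mCherry-negative cells (SE 0.10, adjusted p = 0.469), and the interaction 0.53 (SE 0.16, adjusted p = 0.0345). That call was lost with a replicate block (adjusted p = 0.0604, with 2 other members passing), with median-of-ratios scaling (0.158), quantile normalization (0.1) and voom (0.118), and without any one of 10 libraries: MexHT mCherry-negative replicates 3 to 5, MexHT OSN replicates 2 and 3, HT OSN replicates 1 to 3 and HT mCherry-negative replicates 1 and 2 (0.0506 to 0.0863). Dropping 1 library could raise the number of members that passed, all of them positive. The number reached 10 (12.5%) with MexHT mCherry-negative replicate 1 dropped, where 7.14% of all genes passed in that direction and 12.7% in either. With MexHT OSN replicate 5 dropped, 8 passed (10%, against 8.39% and 14.8%). With HT mCherry-negative replicate 3 dropped, 4 passed (5%, against 6.64% and 12.3%). With MexHT mCherry-negative replicate 2 dropped, 3 passed (3.75%, against 8.37% and 13.8%). The interaction was positive for 67 of 80 genes, with a median of 0.24 against 0.10 for all genes.

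Other genes of mitochondria and energy metabolism did not move as one group with the subunits. Between MexHT OSN and MexHT mCherry-negative cells, 35.8% of all genes tested were higher and 27.6% lower. In that comparison 32 of 46 assembly factors of the complexes were higher and 1 lower (median log2 difference 0.51), with Sdhaf4, a factor for succinate dehydrogenase, at 1.32 and Uqcc2, a factor for complex III, at 1.22. Mitochondrial ribosomal proteins were higher for 50 of 77 genes and lower for 3 (median 0.40), whereas cytosolic ribosomal proteins were lower for 62 of 79 and higher for 1 (median -0.51). Of 18 glycolysis genes 9 were lower and 4 higher, led by the glucose transporter Slc2a3 at -3.40 and hexokinase 2 (Hk2) at -3.06. Of 18 genes of the citric acid cycle and pyruvate dehydrogenase 4 were lower and 3 higher, with Suclg2 at -1.71 and Idh2 at -1.70. Of 11 tested partners of the complexes that the symbol rule leaves out, 4 were higher and 2 lower (median 0.17). The log2 difference was largest for Usmg5, a small protein of the ATP synthase (0.75, adjusted p = 0.000698), followed by Coq9 of ubiquinone synthesis (0.53, adjusted p = 0.00278). The other members that passed, named after their values were seen, were the ATP synthase-associated 2010107E04Rik (0.35) and Etfdh (0.31), which were higher, and Etfb (-0.53) and Etfa (-0.49) of the electron transfer flavoprotein, which were lower. Cyc1, the cytochrome c1 subunit of complex III, differed by 0.14, cytochrome c (Cycs) by 0.02, Ndufab1 by 0.17 and the ATP synthase inhibitor Atpif1 by 0.09, and none of these 4 passed.

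Between MexHT OSN and HT OSN, 19.9% of all genes tested were higher and 16.8% lower. Of 46 assembly factors 10 were higher, a share near that of all genes, and 3 lower (median 0.15), again with Uqcc2 (1.22) and Sdhaf4 (0.99) foremost. Mitochondrial ribosomal proteins were higher for 41 of 77 genes and cytosolic ribosomal proteins for 38 of 79, with none lower in either list (medians 0.43 and 0.44). The citric acid cycle list went the other way, with 8 of 18 lower and 1 higher (median -0.31), led by Idh3a, a subunit of the NAD-dependent isocitrate dehydrogenase, at -1.18. Glycolysis also had 8 of 18 lower and 1 higher (median -0.19), with Hk2 at -1.80 and Pgam1 at -1.02. The regulators of mitochondrial biogenesis were split, with 4 of 13 higher and 4 lower. The 80 tested oxidative phosphorylation genes, at a median of 0.16, thus lay between the ribosomal lists and the citric acid cycle list.

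**Figure D5:**
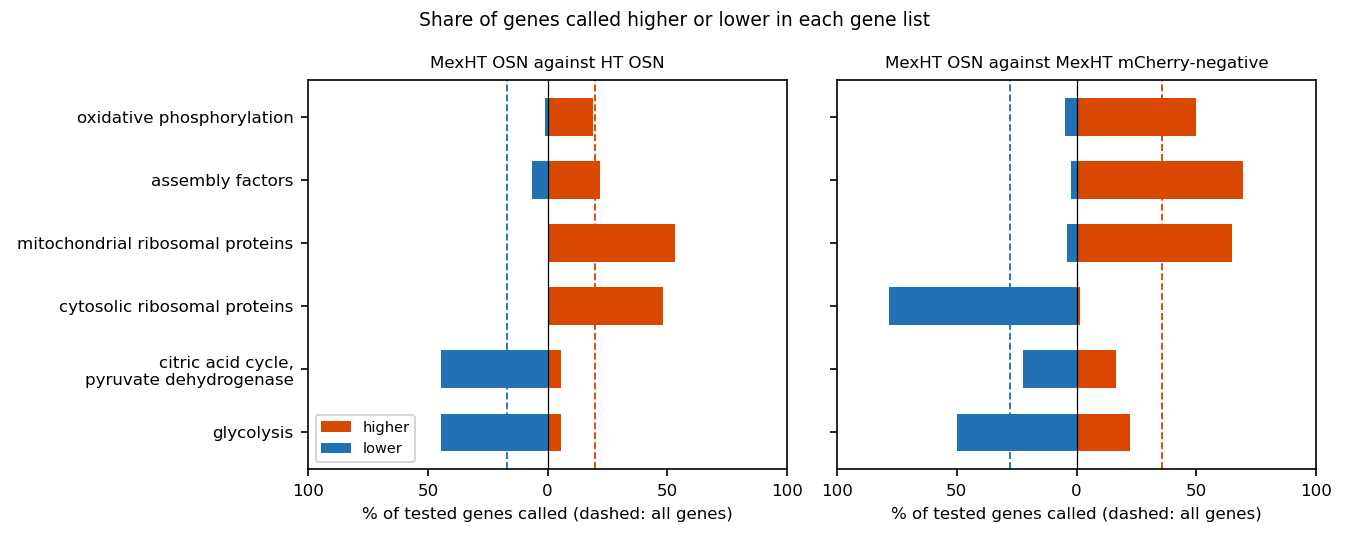
Percentage of tested genes called higher (right of 0) and lower (left of 0) in each list, with dashed lines for all genes tested. In MexHT OSN against HT OSN, 18.8% of the oxidative phosphorylation genes were higher, near the 19.9% of all genes, while 53.2% of the mitochondrial ribosomal proteins were.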

How the data were processed

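RNA from papain-dissociated, sorted cells was made into stranded total RNA libraries with a Takara SMARTer pico input kit, per the labels' protocols. The deposited values are TPM per gene in 2 tables, 1 for each driver combination, which the authors scaled so that each library sums to 1000000. The submitters' processing notes name FastQC, cutadapt, STAR and bedtools and the build mm10. The counting program, annotation and use of strand are not given in the sources used here. Within each table, low TPM values were whole multiples of 1 read, which gave counts within 0.01 of whole for 99.996% of 23614 rows and 99.86% of 22808 rows. These recovered counts were used for depth, for the floor of 3 counts and for voom.

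Comparisons were made within a table on log2(TPM + 1) with limma 3.58.1 (R 4.3.3, genes averaging 1 TPM or more in the fitted libraries, trended variance, two-sided, Benjamini-Hochberg adjustment over all genes, threshold 0.05). Only the groups compared entered a fit. The fit was tested on simulated data. Isoform shares were compared with exact permutation tests (scipy 1.17.1). Alternatives were a pseudocount of 0.1, no filter, median-of-ratios scaling, quantile normalization, array weights, voom, a replicate block, 1 fit for 4 groups, Xist as a covariate, and leaving out each library. The scaling of the summed TPM was an alternative added after seeing the data.

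The labels pair OSN and mCherry-negative libraries by mouse, although 14 of 21 libraries held both Xist and Y-linked transcripts, so a pair may not be a single mouse. The deviations of same-numbered libraries from their group means correlated at -0.11 to 0.42 over the 5 MexHT pairs, 0.17 to 0.47 over the 3 HT pairs and 0.018 in the gg8 mice. Between constructs, the mCherry-negative numbers correlated at 0.23 to 0.42, and those of OSN at -0.23 to 0.13. Nothing says whether replicates of a group came from separate litters or preparations, so p-values measure only the spread between these libraries.

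The members and lists were chosen with earlier results of these data known. Genes were named if they belonged to an isoform set, had the highest mean of a complex, or were among the 4 largest called changes per direction and comparison with at least 5 TPM in the higher group, besides up to 2 genes per list. Ndufb4 and the genes shown only for their promoter were chosen after their values were seen. RefSeq promoters on GRCm38.p6 were matched for 68 of 82 symbols. Pseudogene copies were sought in GENCODE transcripts.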

Additional observations from a re-analysis of the deposited data

Results flagged for a closer look

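Within groups of 4 to 10 libraries, 84 sets of values were examined for a library whose gap to its nearest neighbour was large against the whole range (Dixon's 95% critical value), and 19 stood apart, where chance gives about 1 in 20. MexHT mCherry-negative replicate 1 was the highest of its group for Cox4i1 (710 TPM), Cox6c (1033), Cox7a2 (216), Cox8b (217), Ndufa11 (39.7), Ndufb2 (142), Uqcrq (540.4) and summed complex III (2672). The same library had the highest summed pericyte and smooth muscle markers (1040 TPM) and sustentacular cell markers (993 TPM) of its group, whose part in these values was not tested. MexHT OSN replicate 6 was the highest for Cox4i1 (862 TPM), Cox6b1 (437), Ndufa4l2 (3.05) and Uqcrq (803) and the lowest for Atp5s (5.94). MexHT OSN replicate 5 was the lowest for Atp5b (684 TPM) and Cox6c (559.7). Among isoform shares, Cox7a1 stood at 10.6% in MexHT OSN replicate 1, Cox8b at 1.89% in MexHT OSN replicate 5, Ndufa4l2 at 0.688% in MexHT OSN replicate 6, and Atp5g1 was lowest, at 17.4%, in MexHT mCherry-negative replicate 2. For Ndufs6 the difference between constructs was itself different between the cell fractions (interaction 0.53 on the log2 scale, limma adjusted p = 0.0345).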

How the results depend on the processing

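No value of a named gene changed sign when called under an alternative, and the 4 falls of MexHT OSN against mCherry-negative cells were among those called without any one library. The number of genes called moved by more than 1.5 times as follows, with the share of all genes called under the same setting in brackets. For MexHT OSN against HT OSN it was 16 (36.8%), and 7 with median-of-ratios scaling (36%), 35 with array weights (55.8%), 0 with Xist as a covariate (2.05%) and 6 to 24 without 1 library (23.4% to 40.5%). Between mCherry-negative cells it was 0 (0%), and 51 with array weights (59.7%). For MexHT OSN against mCherry-negative cells it was 44 (63.4%), and 25 with median-of-ratios scaling (60.1%), 29 with voom (60.2%) and 36 to 53 without 1 library (58.4% to 64.8%). For HT OSN against mCherry-negative cells it was 2 (11.3%), and 1 with quantile normalization (10.4%). It was 23 with array weights (62%), 1 with voom (6.21%) and 1 to 4 without 1 library (3.87% to 24.5%). For the gg8 comparison it was 1 (8.32%), and 0 with a pseudocount of 0.1 (3.92%) and 0 without the filter (4.9%). It was 2 with median-of-ratios scaling (9.06%), 0 with quantile normalization (5.69%), 0 with array weights (8.91%) and 0 with voom (8%). Leaving out 1 library, which leaves 1 in a group, is not counted for this comparison. For the interaction it was 1, and 2 without the filter, 0 with median-of-ratios scaling, 49 with array weights, 0 with voom, 2 with the replicate block and 0 to 10 without 1 library. Of the share tests 4 passed, and 0 with the replicate block and 0 to 4 without 1 library, where the smallest possible p rises. With the block the counts were otherwise 16, 0, 40, 2 and 1 in the order above (29.3%, 0%, 64.9%, 29.2% and 9.27% of all genes). Numbers did not pair the OSN libraries of both constructs, and 9 of the 16 genes called there were also called with the block. With array weights 55.8%, 59.7%, 62% and 44.1% of all genes were called in the comparisons of OSN between constructs, of mCherry-negative cells, of the HT fractions and of the interaction. The cause of these shifts was not tested. Over the single named values, 2371 alternatives kept their side of the threshold, 117 lost it and 47 gained it. Depth limits Cox6a2 and Cox7b2, at 0 to 3 counts, and Cox8b, Cox4i2 and Ndufa4l2 in OSN.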
